A study of Homo sapiens with 4 samples.

Results

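The genes described here are MSI2, IGF2BP1, IGF2BP2, IGF2BP3, YBX1, YBX3 and PABPC1, whose products bind mRNA in the cytoplasm and are known for protecting it from decay. They were chosen by name, as every row of the deposited transcript table whose gene symbol was one of these 7. Rows were found for 6 of the 7 genes. They held 34 of the 43596 listed transcripts, which belonged to 15113 gene symbols. IGF2BP1 had no row and gave no value.

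The table comes from RNA-seq of MDA-MB-231 cells, a long-established line of mesenchymal appearance from a human triple-negative breast cancer, grown in DMEM with serum and antibiotics. Cells received either DMSO, the solvent control, or 10 µM KH-3, a small molecule that inhibits the RNA-binding protein HuR, for 24 h, with 2 libraries per group made by an mRNA kit. The only measurement used is the mean normalized read count of each transcript, which the authors averaged over libraries after adjusting for library size. Which libraries entered that mean is not given in the sources used here, and the methods also name a lower dose of KH-3. The remaining columns hold the authors' own comparison of KH-3 with DMSO. They were not used, so the response of these genes to KH-3 is not analysed here, and the values below describe how much of each transcript was present in these cells as pooled by the authors. With 1 pooled value per transcript there is no value per library, no spread between replicates and no test, and the sequencing depth is unknown.

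The lifetime of an mRNA is set by the proteins on its coding region, its 3′UTR and its poly(A) tail. The IGF2BP proteins bind coding regions and 3′UTRs, in part at methylated adenosines, and the Y-box proteins YBX1 and YBX3 coat cytoplasmic mRNA through a cold-shock domain. PABPC1 covers the poly(A) tail and joins it to the translation initiation machinery, and MSI2 binds short UAG-containing sites, mostly in 3′UTRs. Such proteins act beside HuR, which binds AU-rich elements in 3′UTRs, and their own mRNAs can carry these elements.

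IGF2BP2, YBX3 and MSI2 were each present as a pair of abundant coding transcripts that differed by an internal stretch of coding sequence, among other differences. These stretches are shown because the transcripts that hold or lack them made up most of the level of the gene. Each is read on the mRNA strand from hg38 with the annotation of GENCODE release 44, with the differing bases in capitals and the 15 neighbouring transcript bases on each side in lower case. The first is exon 10 of the 16 exons of IGF2BP2-001 (chr3:185672541-185672669, minus strand), absent from IGF2BP2-002. The next is exon 6 of the 10 exons of YBX3-001 (chr12:10709908-10710114, minus strand), absent from YBX3-003. The last is the start of exon 12 of the 14 exons of MSI2-002 (chr17:57674918-57674971, plus strand), absent from MSI2-001.
IGF2BP2-001 exon 10: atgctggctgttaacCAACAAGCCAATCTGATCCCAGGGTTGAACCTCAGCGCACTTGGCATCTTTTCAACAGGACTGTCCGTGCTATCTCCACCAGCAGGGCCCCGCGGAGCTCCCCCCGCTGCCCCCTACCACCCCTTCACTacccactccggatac
YBX3-001 exon 6: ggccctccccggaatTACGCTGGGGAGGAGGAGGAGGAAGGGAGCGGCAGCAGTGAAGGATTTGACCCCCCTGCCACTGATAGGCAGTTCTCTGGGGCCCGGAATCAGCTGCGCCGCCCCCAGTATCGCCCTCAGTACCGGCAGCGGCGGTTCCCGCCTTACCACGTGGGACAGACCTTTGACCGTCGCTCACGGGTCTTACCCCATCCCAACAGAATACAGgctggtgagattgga
MSI2-002 exon 12 start: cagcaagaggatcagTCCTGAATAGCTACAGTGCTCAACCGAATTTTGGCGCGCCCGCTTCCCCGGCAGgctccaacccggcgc

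Each of the 3 stretches was a whole number of codons long. The IGF2BP2 exon had 129 bases or 43 codons, the YBX3 exon 207 bases or 69 codons, and the MSI2 stretch 54 bases or 18 codons. They were rich in G and C, at 61.2%, 63.3% and 59.3% of bases. The IGF2BP2 and YBX3 exons were whole exons skipped in the shorter form, while the MSI2 stretch was the beginning of an exon whose remainder both transcripts contained. Exons and codons are those of release 44, in which IGF2BP2-001, YBX3-001 and MSI2-001 are other versions than the listed ones.

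The 3′UTRs of MSI2, YBX1 and YBX3 each held 1 copy of the AU-rich heptamer UAUUUAU, an extended form of the pentamer AUUUA found in classical AU-rich elements. The sites are shown as 29-base windows of the mRNA with the heptamer in capitals. That of MSI2-001 lay at chr17:57682145-57682173 (plus strand) and began 2639 bases into the 3′UTR. That of YBX1-001 lay at chr1:42702389-42702417 (plus strand) and began at base 451. It is read from the release 44 form of YBX1-001, with 2979 bases against 1514 in the counted version. Whether the counted version holds this site is not known. YBX3-001 and YBX3-003 shared 1 site at chr12:10699182-10699210 (minus strand), which began at base 490.
MSI2-001: gaacuuucucuUAUUUAUgaaaaaaaaug
YBX1-001: aaguauuuagcUAUUUAUaggacccuuag
YBX3-001 and YBX3-003: uauguccuucuUAUUUAUuucuaggauga

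To compare genes of different length, the mean normalized read count of each transcript was divided by its length in kb, and these values were summed over the listed transcripts of a gene. The sum is the level of the gene below. The 6 genes spanned a 45.8-fold range on this scale and all lay above the median gene, whose level was 108 reads per kb. YBX1 had the highest level, 7998 reads per kb, and PABPC1 followed with 7301 reads per kb. Both belonged to the highest 10% of listed genes, which began at 797 reads per kb, and ranked 68th and 79th of the 15113 genes. IGF2BP2 reached 603 reads per kb and YBX3 545 reads per kb. IGF2BP3 stood at 277 reads per kb and MSI2 was lowest at 175 reads per kb.

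**Figure D1:**
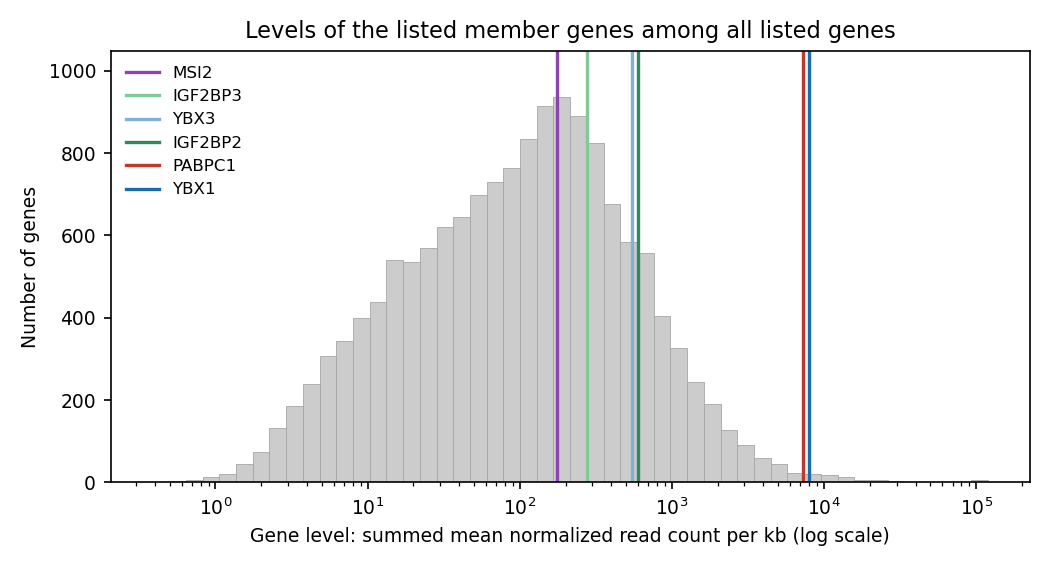
Histogram of the level of all 15113 listed genes (x axis, summed mean normalized read count per kb, log scale; y axis, number of genes), with a vertical line for each of the 6 listed genes of the set. MSI2 and IGF2BP3 stand within the main body of the distribution at 175 and 277 reads per kb, IGF2BP2 and YBX3 on its upper slope, and PABPC1 and YBX1 in the far right tail.

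Set against all listed genes, the level of YBX1 was at or above that of 99.6% of genes and that of PABPC1 at or above that of 99.5%. The corresponding shares were 86.1% for IGF2BP2, 84.9% for YBX3, 72.1% for IGF2BP3 and 61.0% for MSI2. The widest step in the order was the 12.1-fold one between PABPC1 and IGF2BP2, but it turned when transcripts with annotated incomplete ends were left out, with PABPC1 then at 478 reads per kb, below IGF2BP2 at 584 and YBX3 at 527 reads per kb. YBX1 stood 1.10-fold above PABPC1, IGF2BP2 1.11-fold above YBX3, and IGF2BP3 1.59-fold above MSI2. Without a spread between replicates it cannot be said which of these neighbours differ, and the order of the close pairs YBX1 with PABPC1 and IGF2BP2 with YBX3 turned under another way of computing the level. In bulk RNA, the number of cells that express a gene and the amount of RNA per cell cannot be told apart. No gene was named for a pattern like theirs, since a single pooled value gives no pattern across samples.

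Of the 34 transcripts, 22 were annotated as protein-coding, 5 as retained introns, 6 as processed transcripts without a coding sequence and 1 as a target of nonsense-mediated decay, the pathway that removes mRNAs with an early stop codon. Per kb, 23 of the 34 were at or above the median of all listed transcripts, 28.1 reads per kb. In each of the 6 genes the most abundant transcript was a coding one, as in 87.0% of the 12120 listed genes with a coding transcript. The MANE Select transcript, the form chosen as standard by the annotation groups, was listed for 6 of 6 genes, and for 86.1% of the 11915 coding genes that have one. It was the most abundant form for MSI2, IGF2BP3 and YBX1, but not for IGF2BP2, YBX3 or PABPC1.

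**Figure D2:**
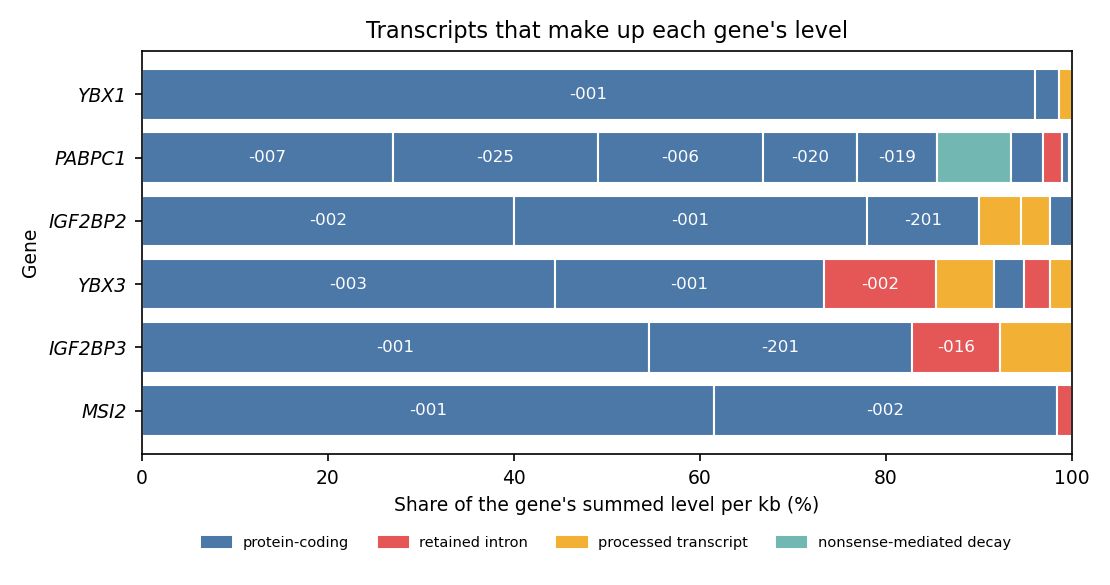
Stacked bars of the share of each listed transcript in the level of its gene (x axis, percent of the summed level per kb; y axis, gene), coloured by annotated transcript type, with the transcript number written on shares of 8% or more. YBX1 is nearly all 1 coding transcript (96.0%), PABPC1 is split over many, and YBX3 has the widest non-coding part (23.5%).

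MSI2, a Musashi-family regulator of translation and mRNA stability known from stem cells and tumours, lies at chr17:57255851-57684689 on the plus strand. It had 3 listed transcripts. MSI2-001, which encodes 328 codons and ends in a 3′UTR of 5172 bases, had 684 reads over 6364 bases, or 108 reads per kb. MSI2-002, which encodes 324 codons and holds the 54-base stretch shown above, had 110.6 reads over 1714 bases, or 64.5 reads per kb. Per kb the longer form was 1.67-fold higher and made up 61.5% of the level against 36.9% for the shorter. In reads, before division by length, the gap was wider, 83.9% against 13.6%. The forms differ at the 3′ end as well, and 4850 exonic bases belonged to MSI2-001 alone against 185 bases to MSI2-002 alone. The other listed transcript, the retained intron MSI2-007, reached only 2.73 reads per kb.

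Among the IGF2BP paralogs, IGF2BP2 and IGF2BP3 were listed and IGF2BP1 was not. IGF2BP2 held 68.5% of the summed level of IGF2BP2 and IGF2BP3 and was 2.17-fold above IGF2BP3. IGF2BP1 gave no value and is not part of this share. IGF2BP2, linked to metabolism and to mRNA binding in adult tissues, lies at chr3:185643130-185825042 on the minus strand and had 6 listed transcripts. IGF2BP2-002, without exon 10 and with 556 codons, stood at 241 reads per kb. IGF2BP2-001, with exon 10 and 599 codons, stood at 229 reads per kb. IGF2BP2-002 was thus 1.05-fold above IGF2BP2-001, and they made up 40.0% and 38.0% of the level of the gene. Other coding transcripts were not sorted by exon 10, so this is not the ratio of skipping to keeping it. In reads the order was the other way, with 794 for IGF2BP2-002 and 845 for IGF2BP2-001. IGF2BP2-002 had no exonic base of its own, so no single base marks it apart from the other forms. A shorter coding transcript of 536 codons held 12.0%, and the other 3 transcripts stood between 13.9 and 27.6 reads per kb.

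IGF2BP3, an oncofetal member of the family that is silent in most adult tissues and often re-expressed in tumours, lies at chr7:23310209-23470491 on the minus strand. It had 4 listed transcripts. IGF2BP3-001 encodes 579 codons and had 642 reads, or 151 reads per kb. A short coding transcript encodes 198 codons, with no exonic base of its own, and had 167 reads, or 78.5 reads per kb. The full-length form was 1.93-fold above the short one and held 54.5% of the level against 28.3%. Non-coding transcripts made up the rest, the retained intron IGF2BP3-016 with 9.51% and the processed transcript IGF2BP3-014 with 7.71%. The listed transcript MALSU1-001 of a neighbouring gene on the opposite strand shared 1521 exonic bases with IGF2BP3. It had 27.3 reads, and whether the counting used strand is not given in the sources used here, so reads from the shared stretch could have gone to either gene.

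YBX1, the general mRNA-packaging Y-box protein that also acts in transcription and in the stress response, lies at chr1:42682418-42703805 on the plus strand. Its 324-codon transcript YBX1-001 had 11625 reads over 1514 bases, or 7679 reads per kb, which was 96.0% of the level of the gene. YBX1-002, with 373 annotated codons and an end marked as incomplete, stood 37.2-fold lower at 207 reads per kb. The processed transcript YBX1-003 stood at 113 reads per kb. No other gene of the set rested on 1 transcript to this degree. Among the 50-base windows of the release 44 sequences of its listed transcripts, 12.4% also occurred in a listed transcript of another gene. These include the processed pseudogene YBX1P1. YBX1-001 has 2979 bases in that release, so the share in the shorter version that was counted is not known. That pseudogene itself was listed at 15.7 reads per kb.

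YBX3, a Y-box relative also known as a cold-shock repressor and as a partner of tight junctions, lies at chr12:10699089-10723323 on the minus strand. Its level was 14.7-fold below that of YBX1. It was spread over 7 listed transcripts. YBX3-003, without exon 6 and with 303 codons, stood at 242 reads per kb and held 44.5% of the level. YBX3-001, with exon 6 and 372 codons, stood at 157 reads per kb and held 28.8%. YBX3-003 was 1.54-fold above YBX3-001. In release 44, YBX3-003 had no exonic base of its own and YBX3-001 had 16, fewer than the 207 of exon 6. Other listed transcripts thus also hold bases of this exon, and 1.54 is not the ratio of skipping to keeping it. The retained intron YBX3-002 had 422 reads, slightly above the 414 reads of YBX3-003, but over 6393 bases this came to 66.0 reads per kb and 12.1% of the level. The processed transcript YBX3-011 held 6.25%, and the other 3 stood between 12.6 and 17.5 reads per kb. In all, non-coding transcripts made up 23.5% of the level of YBX3. This was the largest non-coding share of the 6 genes, above the median of 2.77% over the 12120 coding genes, and 71.4% of those genes had a share at or below it.

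PABPC1, the main cytoplasmic poly(A)-binding protein, lies at chr8:100685816-100722809 on the minus strand and had 11 listed transcripts, the most of the set. Its level came mainly from short ones. PABPC1-007, with 560 bases, stood at 1971 reads per kb, PABPC1-025, with 487 bases, at 1611 reads per kb, and PABPC1-006, with 971 bases, at 1293 reads per kb. The next were PABPC1-020 at 739.7 reads per kb, PABPC1-019 at 627 reads per kb and the decay target PABPC1-014 at 581 reads per kb. The standard transcript PABPC1-001, which encodes the full 636 codons over 3485 bases, stood at 56.0 reads per kb and held 0.767% of the level, 35.2-fold below PABPC1-007.

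The 6 most abundant PABPC1 transcripts, all under 1 kb, have ends that the annotation marks as incomplete. These 6 transcripts held 93.5% of the PABPC1 level, a share that 99.5% of the 12120 coding genes were at or below, and the median gene had none. Transcripts under 1 kb held 95.7% of the level of PABPC1 and 84.7% of its reads. Of its 11 transcripts, 9 had no exonic base of their own in release 44, so in that release no single base marks any of these 9 apart. PABPC1-001 and PABPC1-012 are among the 9 but were counted in other versions, for which this is not known. The split of reads among the PABPC1 transcripts is the estimate made by the authors' software. How far splice junctions tell them apart was not examined. With incomplete transcripts left out, the level of PABPC1 was 478 reads per kb instead of 7301, at or above 84.0% of genes. Its place among the 6 genes went from 2 to 4. Before division by length and with all transcripts in, PABPC1 had 5330 reads, at or above 98.3% of genes, and its place was 2. Of its 50-base windows in release 44, 8.05% also occurred in other listed genes, which include the intronless copy PABPC3 and the pseudogene PABPC1P4. Both were listed near the bottom of the table, at 5.05 and 5.03 reads per kb.

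**Figure D3:**
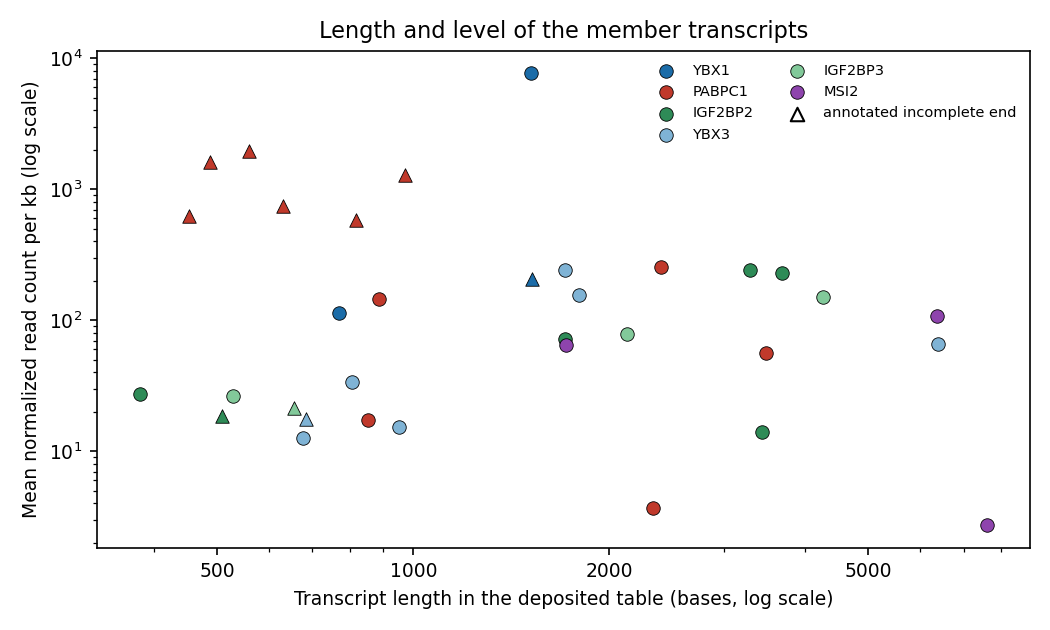
Length (x axis, bases, log scale) and level (y axis, mean normalized read count per kb, log scale) of the 34 transcripts, coloured by gene, with triangles for transcripts that have an annotated incomplete end. The 6 PABPC1 triangles, all under 1000 bases, stand between 581 and 1971 reads per kb, above every other transcript but YBX1-001.

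Across the 6 genes, 15 of the 34 transcripts had no exonic base of their own in release 44. Sharing of 50-base windows with other listed genes was computed on the same release and is given above for YBX1 and PABPC1. It was 0.411% of windows for YBX3, 0.114% for MSI2 and 0% for IGF2BP2 and IGF2BP3.

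AU-rich motifs were counted in the 3′UTR of the most abundant coding transcript of each gene, as AUUUA and UAUUUAU on the mRNA strand, overlapping copies included. A match describes the sequence and is not evidence of binding. That transcript has no annotated 3′UTR in PABPC1, so PABPC1 could not be scored and 5 of the 6 genes remained. AUUUA occurred in 5 of these 5 genes, and in 71.2% of the 11441 listed genes with such a 3′UTR. UAUUUAU occurred in 3 of the 5, MSI2, YBX1 and YBX3, and in 33.4% of the 11441. A long 3′UTR holds more copies by its length alone. Each of the 5 genes was therefore also set beside a group of genes with like 3′UTR lengths. For this, the 11441 genes were split into 10 equal groups by that length. UAUUUAU occurred in 76.2% of the group of MSI2, 39.7% for YBX1 and 21.5% for YBX3. For IGF2BP3 and IGF2BP2, which lack it, the shares were 51.3% and 33.6%. AUUUA occurred in 99.5% of the group of MSI2, 94.8% for IGF2BP3 and 89.1% for YBX1. Its shares were 83.0% for IGF2BP2 and 62.7% for YBX3.

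MSI2-001 held 14 copies of AUUUA between bases 1133 and 3855 of its 3′UTR, near the median of 13 for 3′UTRs of that length, of which 57.3% held as many or fewer. IGF2BP3-001 held 7 in 2153 bases, against a median of 5. IGF2BP2-002 held 2 in 1556 bases, equal to the median of its group. YBX3-003 held 3 in only 600 bases, at bases 459, 476 and 491, so that they lay within 1 short stretch near the end. Its length group had a median of 1, and 89.6% of those genes held as many or fewer. Per kb of 3′UTR the YBX3 density of 5.0 was the highest of the 5 genes whose most abundant coding transcript has a 3′UTR, followed by 3.25 for IGF2BP3, 2.71 for MSI2, 1.62 for YBX1 and 1.29 for IGF2BP2.

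YBX1-001 has 3 copies in the release 44 form of its 3′UTR, at bases 444, 452 and 621, against a median of 4 for its length. That form is 2979 bases long in all, 1465 more than the 1514 bases of the version listed in the deposited table. If the counted version encodes the same 324 codons, it is too short to hold the copy at base 621. The copies at bases 444 and 452, and the UAUUUAU at base 451, cannot be placed in it. The most abundant coding transcript of PABPC1, one of the incomplete ones, has no annotated 3′UTR. Its full-length form PABPC1-001 held 2 copies in 445 bases, at bases 197 and 293, and no UAUUUAU. It too is another version in release 44, with 2861 bases against 3485 in the table, so these copies cannot be placed in the counted form either.

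**Figure D4:**
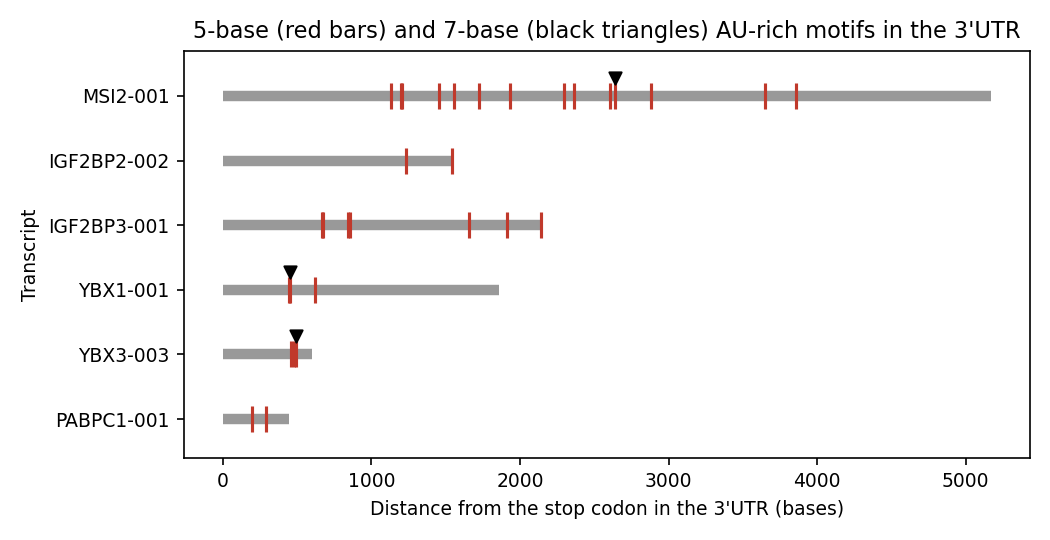
Positions of AUUUA (red bars, the 5-base motif) and UAUUUAU (black triangles, the 7-base motif) along the 3′UTR (grey line; x axis, bases from the stop codon) of 1 transcript per gene (y axis), in the release 44 annotation. The 14 copies of MSI2-001 are spread over the middle of a 5172-base 3′UTR, and the 3 of YBX3-003 lie together near the end of a 600-base one.

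Proteins that work with these genes on mRNA stability and poly(A) tails were examined as a list of 17, chosen with earlier results of these data known. All 17 were listed, with a median level of 297 reads per kb. Of these, 5 were in the highest 10% of genes and 14 were above the median gene. The highest was PAIP2, an inhibitor that pulls PABPC1 off poly(A), at 1774 reads per kb, followed by the helicase DHX9 at 1761 reads per kb and SYNCRIP, a hnRNP-like protein found with IGF2BP1 and YBX1, at 1592 reads per kb. The stress granule protein G3BP1 stood at 1396 reads per kb and LARP1, which binds mRNAs of the translation machinery, at 935 reads per kb. YBX1 stood above all 17 with and without transcripts that have incomplete ends. PABPC1 stood above all 17 only with them, and without them 6 of the 17 were higher. In reads not divided by length, DHX9 stood above PABPC1, at 6129 against 5330 reads, and the other partners stood below PABPC1.

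The remaining partners reached lower levels. PABPN1, the nuclear poly(A)-binding protein, stood at 562 reads per kb, PAIP1, which promotes translation with PABPC1, at 473 reads per kb, and PABPC4, another cytoplasmic poly(A)-binding protein, at 353 reads per kb. This was 20.7-fold below PABPC1, and 2.21-fold below it without transcripts that have incomplete ends. The La-related proteins LARP4B and LARP4, which interact with PABPC1, stood at 297 and 193 reads per kb, and HNRNPU at 163 reads per kb. The deadenylase subunit PAN3 stood at 207 reads per kb, and TOB2 and TOB1, which bring deadenylases to PABPC1, at 193 and 148 reads per kb. The partners below the median gene were the deadenylase PAN2 at 28.5 reads per kb, FMR1 at 13.8 reads per kb and the scaffold EIF4G1 at 12.8 reads per kb. The MANE Select transcripts of EIF4G1 and PAN2 had no row, so these sums leave out the standard form of the gene.

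**Figure D5:**
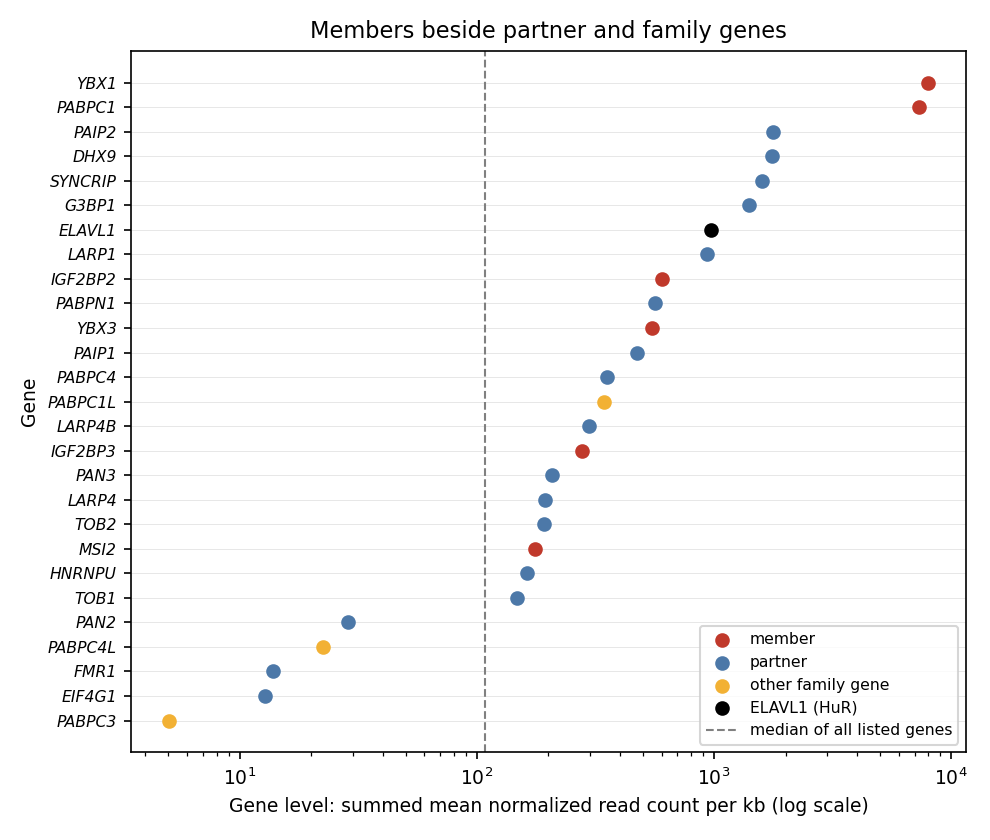
Level (x axis, summed mean normalized read count per kb, log scale) of the 6 listed genes (red), the 17 partners (blue), the other listed genes of the same families (yellow) and ELAVL1, which encodes HuR (black), ordered by level, with the median of all listed genes as a dashed line. With all listed transcripts summed, YBX1 and PABPC1 stand above all others at 7998 and 7301 reads per kb (PABPC1 at 478 without incomplete transcripts, not drawn), and 4 partner or family genes fall under 25 reads per kb.

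Of 6 further genes from the same families, 3 were listed. PABPC1L stood at 343 reads per kb without its MANE Select transcript, PABPC4L at 22.3 reads per kb and PABPC3 at 5.05 reads per kb. MSI1, YBX2 and PABPC5 had no row. A gene without a row gave no value, so how much of it was present is unknown. Of the Musashi and Y-box genes examined, only those already described had rows. Among the poly(A)-binding genes without incomplete-end transcripts, PABPC1 stood at 478 reads per kb, PABPC4 at 216 and PABPC1L at 209 reads per kb. ELAVL1, the gene of the KH-3 target HuR, stood at 966 reads per kb, above IGF2BP2, YBX3, IGF2BP3 and MSI2 and below PABPC1 and YBX1. Without transcripts that have incomplete ends it also lay above PABPC1, at 966 against 478 reads per kb. In reads not divided by length it lay below PABPC1, at 2417 against 5330 reads.

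The label of the cells was examined against 8 genes of mesenchymal triple-negative breast cancer lines, all of which were listed and 7 of which lay above the median gene, with VIM at 10135 reads per kb and FN1 the exception at 8.64 reads per kb. Of 8 genes expected to be low, ESR1, PGR and CDH1 had no row and 4 lay below the median gene, with KRT8 above it at 384 reads per kb. The MANE Select transcripts of VIM, CD44 and KRT8 had no row, so their sums leave out the standard form. A missing row is therefore not a measured low level. Of 3 markers of other cells, the leukocyte gene PTPRC and the hepatocyte gene ALB had no row, and the endothelial gene PECAM1 stood at 4.08 reads per kb.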

How the data were processed

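RNA-seq libraries of MDA-MB-231 cells were grouped by the treatment given in the sample labels, with 2 libraries per group. The authors mapped reads with STAR to GENCODE release 24 transcripts on hg38, estimated reads per transcript with eXpress and compared groups with DESeq2. STAR and DESeq2 are also named in the submitters' processing notes, and versions are not given in the sources used here. The deposited table holds 1 signal per transcript, the mean normalized read count, pooled over libraries by the authors, and transcripts with a mean under 7.34 are not in it. Its 3 further columns, the log2 fold change, p-value and q-value of KH-3 over DMSO, are the authors' comparison and were not used. The table holds no values per library, so depth, replicate spread and counting intervals are unknown, and no test was run.

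Levels were computed as the mean normalized read count per kb of listed length, summed over the listed transcripts of a gene, and ranked among all listed genes. Members and lists were chosen with earlier results of these data known. Named are the genes of the set, their transcripts with at least 5% of the gene's level, and every listed gene of the partner, family and marker lists, except 1 gene of the partner list that is not reported here and was left out of its counts. Exons, coding sequences and 3′UTRs were taken from hg38 with GENCODE release 44, another release than that of the authors. All 34 transcripts were found in it by identifier, 26 with the same version. Motifs were counted on the mRNA strand.

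Alternatives were coding transcripts only, a mean of at least 20, no division by length, an effective length (length minus 200 bases), the most abundant transcript only, UAUUUAU in place of AUUUA and the longest coding transcript for the 3′UTR. Leaving out transcripts with annotated incomplete ends was added after the data were seen. The computation was tested on simulated data with seed 1. Python 3.11.15, pandas 2.3.3, numpy 2.4.6 and matplotlib 3.10.9 were used.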

Additional observations from a re-analysis of the deposited data

How the results depend on the processing

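The values are pooled means without replicate spread, so moves between settings could not be set against an error, and no leave-one-out or paired fit was run. No paired analysis was possible because the table holds 1 pooled value per transcript. IGF2BP2 held 68.5% of the summed level of IGF2BP2 and IGF2BP3, and 70.8% with coding transcripts only or with a mean of at least 20. The share was 68.6% without division by length, 68.3% with the effective length, 61.5% by the most abundant transcript and 69.5% without incomplete ends. YBX1 stood 14.7-fold above YBX3, and 18.9-fold with coding transcripts only, 16.0-fold with a mean of at least 20, 10.2-fold without division by length, 31.7-fold by the most abundant transcript and 14.8-fold without incomplete ends. Without incomplete ends, 1 gene instead of 2 was in the highest 10% of genes, since PABPC1 left it. UAUUUAU was found in 3 genes where AUUUA was found in 5. By the longest coding transcript AUUUA was again found in 5 genes, with PABPC1 in and YBX1, then read from the incomplete YBX1-002, out. MSI2 was lowest in all 7 settings. The effective length put PABPC1 (10956 reads per kb) over YBX1 (9238 reads per kb), and the most abundant transcript put YBX3 over IGF2BP2, at 242 against 241 reads per kb. Without division by length, the retained intron YBX3-002 had more reads than any coding transcript of the gene.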
